A study of Mus musculus with 12 samples.

Results

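The data described here are the transcripts of 10 genes of the Hippo pathway and its effectors in aortic smooth muscle cells (SMCs) of the mouse: *Yap1*, *Wwtr1*, *Tead1*, *Tead2*, *Tead3*, *Tead4*, *Lats1*, *Lats2*, *Amotl2*, and *Ankrd1*. They form a list of named genes, and all 10 were found among the 52636 genes of the count table. GFP-positive SMCs were sorted from GFPiSMC and Tgfbr1/2iSMCKO mice, separately from the ascending aorta with the arch and from the descending thoracic aorta, which gave 12 libraries in 4 groups of 3. An animal below means the ascending/arch and the descending library that share a genotype and a number, an assumption that the labels do not state. All mice were C57BL/6J, were analyzed at 12 weeks of age, and had received tamoxifen for 5 days. The labels give 1 mg/d from 4 weeks or 2 mg/d from 11 weeks of age, without saying which mice had which schedule. The study's methods give the second as the standard. The paper places the sequencing of these SMCs 1 week after the disruption, in mature aortas, which matches the second schedule only. All carried the *Myh11*-CreERT2 transgene and the mT/mG reporter, which switches from a red to a green fluorescent protein where Cre has been active. The Tgfbr1/2iSMCKO mice also carried floxed *Tgfbr1* and *Tgfbr2*, so that tamoxifen deleted both TGF-β receptors in SMCs. GFPiSMC mice lacked floxed alleles, and mouse line and deletion cannot be told apart. The Cre transgene lies on the Y chromosome, which limits the model to males.

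In the Hippo pathway, the kinases MST1 and MST2 activate the kinases LATS1 and LATS2, which phosphorylate YAP (encoded by *Yap1*) and TAZ (encoded by *Wwtr1*) and thereby keep them in the cytoplasm. Unphosphorylated YAP and TAZ enter the nucleus and bind DNA through the TEAD factors, and among the genes they are known to switch on are *Ankrd1*, *Amotl2*, *Lats2*, *Ccn1*, and *Ccn2*. AMOTL2, a member of the angiomotin family, binds YAP at cell junctions, so that *Amotl2* and *Lats2* are both targets and inhibitors. In SMCs, YAP and TAZ are known to respond to stretch and to matrix stiffness, and several of their targets are also induced by TGF-β. Transcript levels do not measure phosphorylation or nuclear entry of YAP and TAZ, and no protein was measured in these libraries.

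Of the 10 genes, 2 were lower in Tgfbr1/2iSMCKO SMCs over the 12 libraries, and none was higher. They were the inhibitory kinase *Lats2* and the target gene *Ankrd1*. Of all 22320 genes tested, 3.23% were lower. In both genes, every Tgfbr1/2iSMCKO library lay below every GFPiSMC library, as in 2.89% of all genes. With counts summed per animal, *Ankrd1* did not pass (edgeR adjusted p = 0.0847). The promoter sequences of *Ankrd1*, *Lats2*, and *Amotl2*, whose levels carry most of what follows, show where they differ in the core letters bound by TEAD factors, GGAATG on either strand. The sequences are the 250 bases before the start site in RefSeq (GRCm38.p6), written 5′ to 3′ on the strand of the gene, with capitals for GGAATG or its reverse complement.

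Ankrd1, chr19:36119845-36120094, minus strand: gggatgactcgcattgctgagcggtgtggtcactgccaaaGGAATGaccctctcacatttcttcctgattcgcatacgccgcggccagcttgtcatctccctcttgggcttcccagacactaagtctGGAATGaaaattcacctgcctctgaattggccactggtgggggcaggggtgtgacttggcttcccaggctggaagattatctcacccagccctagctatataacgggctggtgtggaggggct

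Lats2, chr14:57746124-57746373, minus strand: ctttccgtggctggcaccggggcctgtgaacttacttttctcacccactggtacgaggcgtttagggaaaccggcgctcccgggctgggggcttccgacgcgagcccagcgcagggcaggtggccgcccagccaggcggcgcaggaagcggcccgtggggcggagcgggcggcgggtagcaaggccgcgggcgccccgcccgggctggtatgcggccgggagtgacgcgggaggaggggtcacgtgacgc

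Amotl2, chr9:102717554-102717803, plus strand: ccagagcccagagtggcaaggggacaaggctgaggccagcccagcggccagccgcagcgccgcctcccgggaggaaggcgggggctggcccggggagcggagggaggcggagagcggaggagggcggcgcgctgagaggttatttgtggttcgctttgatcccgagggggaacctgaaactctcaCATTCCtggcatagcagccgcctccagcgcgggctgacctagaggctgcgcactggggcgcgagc

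The *Ankrd1* window held GGAATG at 2 places, which began 210 and 123 bases before the start site, and the *Amotl2* window held its reverse complement, beginning 65 bases before the start site. No match stood in the *Lats2* window shown or in the window of a second RefSeq start site of *Lats2*, chr14:57734419-57734668. Both windows lie inside the *Lats2* gene of GENCODE, chr14:57689662-57758388, and the bases before its 5′ end were not searched. The *Ankrd1* and *Amotl2* windows also lie inside their GENCODE genes. Of the 10 genes, 8 had promoters in the RefSeq table, and 5 of these had a match in at least 1 window: *Ankrd1*, *Amotl2*, *Yap1* (141 bases before the start), *Wwtr1* (136 and 170 bases before 2 start sites), and *Tead3*. Counted by window, 7 of the 12 windows of these genes held the letters, and 12.6% of all 32851 promoter windows of that length did. The 7 are not independent: the 2 *Wwtr1* windows overlap and hold the same site, and 2 *Tead3* windows also overlap. A search for GTCTG on either strand, core letters of SMAD factors, matched in *Ankrd1*, *Yap1*, and *Lats1*, in 3 of the 12 windows, against 42.2% of all windows. Of the 2 GTCTG matches in *Ankrd1*, which began 137 and 127 bases before the start site, the second shared 1 base with a GGAATG match, whereas the matches in *Yap1* shared 0 bases. Promoters of *Tead1* and *Tead4* were not analysed here. These matches describe letters in a window and are not measurements of binding.

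The total count per library was 25007747 to 31392396 in GFPiSMC and 20467027 to 30354994 in Tgfbr1/2iSMCKO libraries, from 9208 to 20000 sorted cells. Levels are given as CPM, a library's counts brought to a common total after TMM scaling. Comparisons between genes use CPM per kilobase of exon, with all annotated exons of a gene pooled. Sums over marker lists were scaled by library size alone, without TMM. The smooth muscle markers, led by *Acta2*, summed to 39590 to 44550 CPM in GFPiSMC and 35490 to 44310 CPM in Tgfbr1/2iSMCKO libraries. Markers of other cell types were low beside these: 19.4 to 263.8 CPM for 8 fibroblast genes, 68.8 to 113.6 CPM for 8 endothelial genes, and 5.83 to 23.5 CPM for 8 macrophage genes. Between genotypes over 12 libraries, 1 of the 8 endothelial genes was higher and 1 lower, with a list median of 0.95 (log2). The former was *Cdh5*, at 0 to 0.513 CPM in GFPiSMC and 0.497 to 2.71 CPM in Tgfbr1/2iSMCKO (log2 fold change 2.97, SE 0.702, edgeR adjusted p = 0.0250), and the latter *Erg*, at 10.1 to 21.7 and 5.99 to 8.75 CPM (−1.13, SE 0.215, edgeR adjusted p = 0.00652). Their part in the levels of the 10 genes was not tested. *Tgfbr1* was at 196.0 to 292 CPM in GFPiSMC and 198 to 295 CPM in Tgfbr1/2iSMCKO libraries, and *Tgfbr2* at 88.9 to 128 and 68.2 to 102 CPM. Counts over whole genes include exons outside the deletion and do not check it.

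Per kilobase, *Wwtr1* was the most abundant of the 10 genes in both genotypes, at 27.7 ± 3.87 CPM per kb in GFPiSMC and 23.9 ± 4.66 CPM per kb in Tgfbr1/2iSMCKO (SD, n = 6 libraries). Its lowest library lay above the highest library of the next gene, *Lats2*, in either genotype. In GFPiSMC, the order went on with *Lats2* (16.3 ± 1.24), *Ankrd1* (16.0 ± 4.20), *Lats1* (10.2 ± 3.78), *Yap1* (5.94 ± 2.91), *Tead1* (3.54 ± 2.85), *Amotl2* (2.68 ± 2.78), *Tead3* (2.14 ± 1.55), *Tead2* (0.301 ± 0.191), and *Tead4* (0.0959 ± 0.0644 CPM per kb). From *Lats2* down, the ranges of all neighbours in this order overlapped. In Tgfbr1/2iSMCKO, *Ankrd1*, at 4.80 ± 3.19 CPM per kb, came after *Lats2* (8.10 ± 1.11), *Lats1* (7.53 ± 4.77), and *Yap1* (5.19 ± 2.13), again with overlapping neighbours below *Wwtr1*. Per kilobase, TAZ transcripts exceeded YAP transcripts in each of the 12 libraries, by at least 2.34 times. The median was 4.15 times in GFPiSMC and 4.27 times in Tgfbr1/2iSMCKO. These ratios depend on the pooled exon lengths, 9257 bases for *Yap1* and 4779 for *Wwtr1*, whichever isoforms the cells express. Before division by length, the library with the lowest ratio, ascending/arch Tgfbr1/2iSMCKO animal 3, had 82.2 CPM of *Wwtr1* and 67.9 CPM of *Yap1*.

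*Lats2* (ENSMUSG00000021959, GRCm38 chr14:57689662-57758388, minus strand) was at 112, 126, and 116 CPM in ascending/arch and 117, 111, and 99.8 CPM in descending GFPiSMC libraries, for animals 1 to 3. In Tgfbr1/2iSMCKO it was at 63.5, 48.6, and 58.5 CPM in ascending/arch and 45.3, 59.0, and 63.8 CPM in descending libraries. The highest Tgfbr1/2iSMCKO library had 0.639 of the level of the lowest GFPiSMC library. The log2 fold change was −1.01 (SE 0.118, adjusted p = 0.000162 by edgeR's quasi-likelihood test with Benjamini-Hochberg adjustment over 22320 genes). *Lats2* was the only one of the 10 genes that passed this test within each segment, with −1.05 (SE 0.174, edgeR adjusted p = 0.00866) in ascending/arch and −0.96 (SE 0.173, edgeR adjusted p = 0.0129) in descending SMCs. The genotype effects in the segments differed by 0.09 (SE 0.243, edgeR adjusted p = 1.00). Over 12 libraries it passed under all 16 alternatives, with log2 fold changes from −1.08 to −0.88. Within a segment the call was lost without any one of the GFPiSMC animals (adjusted p 0.0517 to 0.0802 for ascending/arch and 0.0518 to 0.143 for descending SMCs), without Tgfbr1/2iSMCKO animal 2 in ascending/arch (0.0573), without Tgfbr1/2iSMCKO animal 1 in descending SMCs (0.102), and with the descending libraries fitted alone (0.0920).

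*Ankrd1* (ENSMUSG00000024803, chr19:36111961-36120099, minus strand) encodes an ankyrin repeat protein of the nucleus and the sarcomere. It was at 38.2, 39.5, and 41.5 CPM in ascending/arch and 52.9, 68.2, and 37.6 CPM in descending GFPiSMC libraries. The Tgfbr1/2iSMCKO libraries had 9.27, 30.3, and 7.76 CPM in ascending/arch and 5.05, 18.0, and 12.8 CPM in descending libraries. Animal 2 was the highest of the Tgfbr1/2iSMCKO mice in both segments, and its ascending/arch library still had 0.804 of the lowest GFPiSMC level. The log2 fold change over 12 libraries was −1.74 (SE 0.378, edgeR adjusted p = 0.0155). Within segments it was −1.34 (SE 0.521, edgeR adjusted p = 0.336) in ascending/arch and −2.15 (SE 0.534, edgeR adjusted p = 0.0756) in descending SMCs, neither past the threshold. These effects differed by −0.81 (SE 0.726, edgeR adjusted p = 1.00). With the counts of each mouse summed, so that its segments were not treated as separate samples, the adjusted p over genotypes was 0.0847, and without any one mouse other than Tgfbr1/2iSMCKO animal 2 it was 0.0508 to 0.0708.

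*Ankrd1* is also abundant in the heart. The 8 cardiac markers, led by *Tnnt2*, summed to 32.0 to 51.3 CPM in ascending/arch GFPiSMC and 65.4 to 119 CPM in ascending/arch Tgfbr1/2iSMCKO libraries, and to 27.3 to 29.8 and 28.1 to 34.0 CPM in descending libraries, with *Myl7* at 0 counts in all. Within the list, 5 of 8 genes were tested over 12 libraries, 0 were higher, and 1 was lower, *Actn2*, which encodes a sarcomeric actinin, with 4.81 to 15.9 CPM in GFPiSMC and 1.61 to 2.61 CPM in Tgfbr1/2iSMCKO libraries (log2 fold change −2.10, SE 0.298, edgeR adjusted p = 0.000769). *Tnnt2* was at 0.96 (SE 0.362, edgeR adjusted p = 0.183). The 9 immediate early genes, led by *Dusp1*, summed to 586 to 1855 CPM in GFPiSMC and 428 to 2145 CPM in Tgfbr1/2iSMCKO libraries. By edgeR, 0 of the 9 passed the test, and 3 had an unadjusted p under 0.05, as had 3596 of all 22320 genes. The median log2 fold change of the 9 was −0.68, with 6 negative, and that of all genes was 0.04. The part of either list in the level of *Ankrd1* was not tested. In bulk samples, fewer cells that express a gene and less RNA per cell cannot be told apart.

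The calls compare with the background as follows. Of all 22320 genes tested over 12 libraries, 5.03% passed an adjusted p of 0.05, 3.23% as lower in Tgfbr1/2iSMCKO, against 2 of the 10 genes described here. Both were also beyond 2-fold lower, as were 1.64% of all genes, and both had non-overlapping genotypes, as had 2.89% of all genes in the same direction. Within segments, 1 of 10 was lower in ascending/arch and 1 of 10 in descending SMCs, against 1.01% and 1.21% of all genes. The median log2 fold change of the 10 genes was −0.20, that of all genes 0.04. With so few genes, these shares describe them and carry no test.

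**Figure D1:**
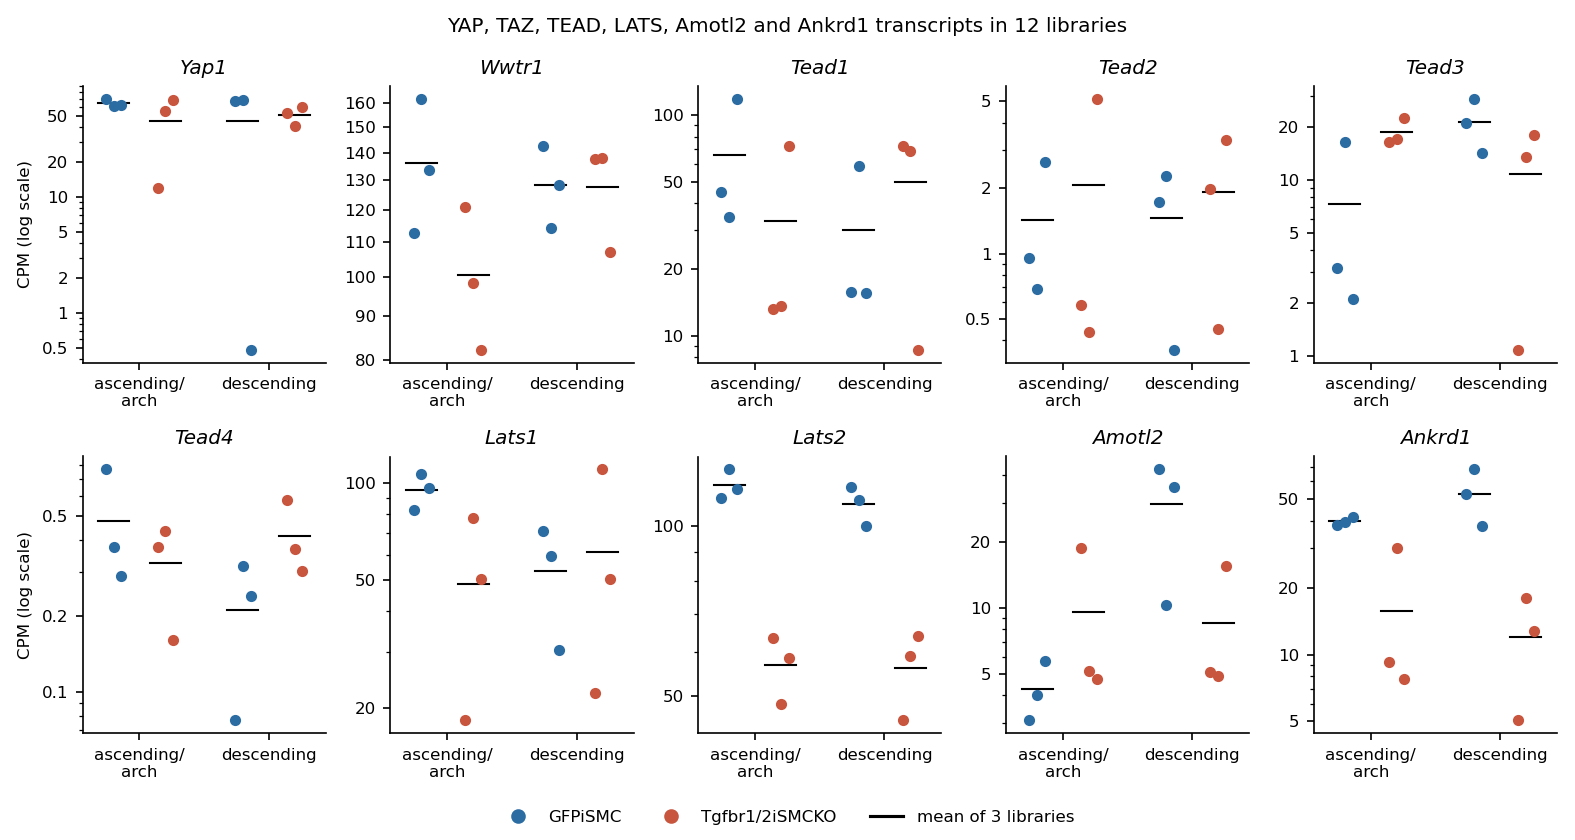
CPM (log scale, a separate scale in each panel) of the 10 genes in each library, by segment and genotype, with black lines at the mean of 3 libraries. The Tgfbr1/2iSMCKO libraries lie below all GFPiSMC libraries for *Lats2* and *Ankrd1*. A single library stands far below its group for *Yap1* in descending GFPiSMC and in ascending/arch Tgfbr1/2iSMCKO, and for *Tead3* in descending Tgfbr1/2iSMCKO. In ascending/arch GFPiSMC, *Tead3* is low in all but a single library.

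*Wwtr1* (ENSMUSG00000027803, chr3:57455649-57575910, minus strand) was at 113, 162, and 134 CPM in ascending/arch and 142, 114, and 128 CPM in descending GFPiSMC libraries. Tgfbr1/2iSMCKO levels were 121, 98.5, and 82.2 CPM in ascending/arch and 138, 138, and 107 CPM in descending libraries. The genotypes overlapped, and the log2 fold change was −0.22 (SE 0.144, edgeR adjusted p = 0.532). The spread of *Wwtr1* was narrow, with at most 1.47 times between the highest and lowest library of a group, as it was for *Lats2* with 1.41 times.

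*Yap1* (ENSMUSG00000053110, chr9:7931999-8004596, minus strand) was at 70.5, 61.0, and 62.2 CPM in ascending/arch and 66.8, 69.1, and 0.482 CPM in descending GFPiSMC libraries. Libraries of Tgfbr1/2iSMCKO mice had 12.0, 55.1, and 67.9 CPM in ascending/arch and 53.0, 40.9, and 59.2 CPM in descending libraries. Thus 10 of the 12 libraries lay between 40.9 and 70.5 CPM, whereas descending GFPiSMC animal 3 had 12 counts and ascending/arch Tgfbr1/2iSMCKO animal 1 had 350. The other segment of each of these mice was within the range of the rest. The log2 fold change was −0.18 (SE 0.678, edgeR adjusted p = 0.950), and 2-fold changes in either direction lay within 2 SE of it. The sum of YAP and TAZ transcripts, in which *Yap1* has the smaller share, was 26.9 to 40.5 CPM per kb in GFPiSMC and 24.5 to 34.6 CPM per kb in Tgfbr1/2iSMCKO.

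The same kind of spread was seen in several other genes. Among the 8871 genes with a mean of at least 10 CPM, the largest ratio of the highest to the lowest library within a group of 3 had a median of 1.79 and exceeded 5 in 5.90%. It exceeded 5 in 3 of the 8 genes described here that reached 10 CPM: 143 times for *Yap1*, 16.6 times for *Tead3*, and 8.42 times for *Tead1*. *Lats1* followed with 4.96, *Amotl2* with 4.12, and *Ankrd1* with 3.90 times. In a single library, between 0.135% and 0.812% of the 8871 genes fell below 0.2 of their group's median, with the highest share in descending GFPiSMC animal 3, where *Yap1* had 12 counts. That library and ascending/arch Tgfbr1/2iSMCKO animal 1, the other with low *Yap1*, were also the lowest of their groups for *Lats1*. The share of all genes with that order was not counted. Descending Tgfbr1/2iSMCKO animal 1 was likewise the lowest of its group for *Lats1*, at 22.3 CPM, with *Yap1* at 53.0 CPM. The low values of *Tead3* fell in libraries other than the 2 with low *Yap1*. What sets the libraries with low values apart was not tested.

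**Figure D2:**
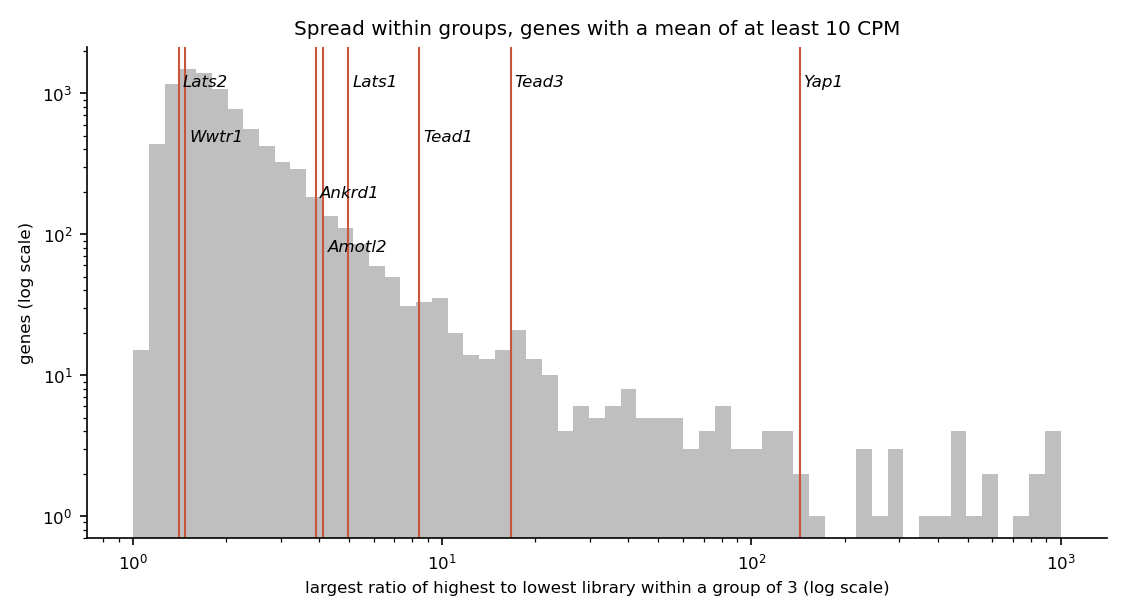
Histogram of 8871 genes with a mean of at least 10 CPM by the largest ratio of the highest to the lowest library within any group of 3 (both axes on a log scale, ratios over 1000 in 3 genes drawn at the right end). Red lines mark 8 of the genes described; *Lats2* and *Wwtr1* lie near the bulk of genes and *Yap1* at 143 far beyond it.

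The TEAD factors carry the DNA-binding domain of the complex. *Tead1* (ENSMUSG00000055320, chr7:112679318-112906807, plus strand) was at 44.9, 34.4, and 119 CPM in ascending/arch and 15.8, 58.8, and 15.6 CPM in descending GFPiSMC libraries. Tgfbr1/2iSMCKO SMCs had 13.2, 13.6, and 72.5 CPM in ascending/arch and 72.4, 68.6, and 8.60 CPM in descending libraries. The libraries of a group differed by up to 8.42 times, and the genotypes overlapped (log2 fold change −0.13, SE 0.656, edgeR adjusted p = 0.961).

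*Tead3* (ENSMUSG00000002249, chr17:28331671-28350817, minus strand) was at 3.15, 16.5, and 2.11 CPM in ascending/arch and 21.1, 29.0, and 14.2 CPM in descending GFPiSMC libraries. The corresponding Tgfbr1/2iSMCKO values were 16.4, 17.0, and 22.5 CPM in ascending/arch and 1.08, 13.4, and 17.9 CPM in descending libraries. Low values were thus confined to 2 ascending/arch GFPiSMC libraries and 1 descending Tgfbr1/2iSMCKO library, and the log2 fold change was 0.18 (SE 0.697, edgeR adjusted p = 0.950). In these 3 libraries, *Tead1* made up 78.9%, 90.3%, and 87.9% of all TEAD transcripts per kilobase. *Tead1* exceeded *Tead3* per kilobase in 4 of 6 GFPiSMC and 3 of 6 Tgfbr1/2iSMCKO libraries. The sum of the 4 TEAD genes varied less, from 3.41 to 9.73 CPM per kb in GFPiSMC and 3.65 to 9.81 CPM per kb in Tgfbr1/2iSMCKO libraries.

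*Tead2* (ENSMUSG00000030796, chr7:45215753-45233644, plus strand), known from neural and embryonic tissue, was between 0.362 and 2.64 CPM in GFPiSMC and between 0.437 and 5.15 CPM in Tgfbr1/2iSMCKO libraries, from 9 to 160 counts. *Tead4* (ENSMUSG00000030353, chr6:128224288-128300823, minus strand), known from the trophectoderm, was between 0.0767 and 0.770 CPM in GFPiSMC and between 0.161 and 0.580 CPM in Tgfbr1/2iSMCKO libraries, from 2 to 21 counts. At these counts only large differences could be detected, and the log2 fold changes were 0.47 (SE 0.671, edgeR adjusted p = 0.841) for *Tead2* and 0.18 (SE 0.526, edgeR adjusted p = 0.933) for *Tead4*.

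*Lats1* (ENSMUSG00000040021, chr10:7681214-7716460, plus strand), the paralog of *Lats2*, was at 82.7, 107, and 96.7 CPM in ascending/arch and 71.0, 59.2, and 30.4 CPM in descending GFPiSMC libraries. Values in Tgfbr1/2iSMCKO were 18.4, 77.8, and 50.4 CPM in ascending/arch and 22.3, 110.6, and 50.3 CPM in descending libraries. In ascending/arch SMCs the 3 Tgfbr1/2iSMCKO libraries lay below the 3 GFPiSMC libraries, whereas the descending groups overlapped. How many of all genes had such an order of 3 against 3 was not counted. The log2 fold changes were −0.97 (SE 0.560, edgeR adjusted p = 0.582) in ascending/arch and 0.19 (SE 0.556, edgeR adjusted p = 0.982) in descending SMCs, neither past the threshold. The log2 fold change over 12 libraries was −0.39 (SE 0.418, edgeR adjusted p = 0.766). The sum of both LATS kinases was 18.5 to 32.7 CPM per kb in GFPiSMC and 9.56 to 23.6 CPM per kb in Tgfbr1/2iSMCKO, with *Lats2* making up 55.2% to 77.5% and 35.8% to 78.4% of it.

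*Amotl2* (ENSMUSG00000032531, chr9:102716672-102733418, plus strand) was at 3.08, 4.02, and 5.74 CPM in ascending/arch and 42.7, 10.3, and 35.4 CPM in descending GFPiSMC libraries. All 3 descending libraries thus lay above the ascending/arch libraries of this genotype. The share of all genes with that order was not counted. In Tgfbr1/2iSMCKO SMCs, levels were 18.7, 5.14, and 4.74 CPM in ascending/arch and 5.13, 4.91, and 15.5 CPM in descending libraries, so that the segments overlapped. The log2 difference of descending against ascending/arch SMCs was 2.78 in GFPiSMC (SE 0.691, edgeR adjusted p = 0.182), which passed in DESeq2 alone of the alternatives (adjusted p = 0.00199), and −0.16 in Tgfbr1/2iSMCKO (SE 0.648, edgeR adjusted p = 1). The difference between these 2 values was −2.95 (SE 0.935, edgeR adjusted p = 1.00), not past the threshold although its unadjusted p ranked 86 among those of 22320 genes. The same value is the difference between the genotype effects in the segments, 1.16 (SE 0.660, edgeR adjusted p = 0.572) in ascending/arch and −1.79 (SE 0.664, edgeR adjusted p = 0.304) in descending SMCs. Over 12 libraries the genotypes differed by −0.33 (SE 0.666, edgeR adjusted p = 0.899). The 8 fibroblast markers, led by *Dcn*, moved with the segment, from 104 to 155 CPM in ascending/arch to 24.5 to 40.5 CPM in descending GFPiSMC libraries, and from 86.6 to 264 CPM to 19.4 to 43.6 CPM in Tgfbr1/2iSMCKO libraries. Their part in the level of *Amotl2* was not tested.

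Comparisons of the segments and of their interaction with genotype called none of the 10 genes by edgeR. For the interaction, edgeR called 0% of all genes, with 659 at an unadjusted p under 0.05. *Amotl2* was the only one of the 10 genes among these 659. DESeq2 called 1 lower and 7 higher of all genes, none of them among the 10. Between segments, 0.376% of all genes passed in GFPiSMC and 0.112% in Tgfbr1/2iSMCKO. Of the 10 genes, 1 had an unadjusted p under 0.05 in GFPiSMC and 0 in Tgfbr1/2iSMCKO, where DESeq2 and limma-voom also called 0. Of all 22320 genes, 1334 had an unadjusted edgeR p under 0.05 in GFPiSMC and 821 in Tgfbr1/2iSMCKO.

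The other genes of the pathway were given by 3 lists. Of the core kinase cassette and its scaffolds, 0 of 13 genes passed between genotypes over 12 libraries by edgeR, DESeq2, or limma-voom. The median log2 fold change was 0.01, and 1 gene had an unadjusted edgeR p under 0.05, as had 3596 of all 22320 genes. The list holds *Stk3* and *Stk4*, which encode MST2 and MST1, their partner *Sav1*, and the upstream scaffold *Nf2*. Their log2 fold changes were 0.15 for *Stk3* (SE 0.142), −0.33 for *Stk4* (SE 0.236), −0.30 for *Sav1* (SE 0.186), and 0.40 for *Nf2* (SE 0.241).

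Of the regulators of YAP and TAZ and the cofactors of TEAD, 14 of 16 genes were tested, 1 was lower (against 3.23% of all genes), 0 were higher, and the median log2 fold change was −0.29 (0.04 for all genes). The gene that fell was *Wtip*, of the Ajuba family of LIM proteins that inhibit LATS kinases. It was at 101, 92.1, and 84.8 CPM in ascending/arch and 129, 108, and 101 CPM in descending GFPiSMC libraries, and at 36.7, 37.1, and 37.1 CPM in ascending/arch and 44.8, 41.5, and 40.2 CPM in descending Tgfbr1/2iSMCKO libraries. Its log2 fold change was −1.37 (SE 0.105, edgeR adjusted p = 3.70e-06). DESeq2 called 3 genes of this list, and 1139 lower and 891 higher of all 22320 genes.

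Of the target genes of YAP and TAZ, 17 of 18 were tested over 12 libraries, 5 were lower (against 3.23% of all genes), 0 were higher, and the median log2 fold change was −0.26 (0.04 for all genes). *Ccn2*, a matricellular protein that TGF-β also induces, was at 5529, 6208, and 5209 CPM in ascending/arch and 5439, 7387, and 3923 CPM in descending GFPiSMC libraries. The knockout libraries had 50.3, 208, and 83.5 CPM in ascending/arch and 28.1, 187, and 79.2 CPM in descending libraries. Its log2 fold change was −5.73 (SE 0.483, edgeR adjusted p = 7.80e-06). *Fjx1* (−1.38, SE 0.186), *Tgfb2*, a ligand of the deleted receptors (−0.79, SE 0.111), *Crim1* (−0.67, SE 0.159), and *Myof* (−0.57, SE 0.146) also fell, with edgeR adjusted p values of 0.000530, 0.000693, 0.0252, and 0.0379. *Myof*, the fifth of these by p, was named after its values were seen. With counts summed per mouse, 3 genes of the list remained past the threshold, *Crim1* and *Myof* not among them, and the count was also 3 with library size alone as the scaling and without Tgfbr1/2iSMCKO animal 1, GFPiSMC animal 1, or GFPiSMC animal 2.

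Within segments, 3 target genes were lower and 0 higher in ascending/arch SMCs, against 1.01% of all genes lower, and 2 were lower and 1 higher in descending SMCs, against 1.21% lower and 0.52% higher. The gene that was higher was *F3*, which encodes tissue factor and was named after its values were seen. It was at 82.2, 49.6, and 59.2 CPM in ascending/arch and 27.6, 26.5, and 23.1 CPM in descending GFPiSMC libraries, and at 63.0, 71.4, and 59.2 CPM in ascending/arch and 50.6, 58.5, and 49.7 CPM in descending Tgfbr1/2iSMCKO libraries. The descending GFPiSMC libraries thus lay below all others, an order whose share among all genes was not counted. The log2 fold change between genotypes was 1.04 in descending (SE 0.205, edgeR adjusted p = 0.0234) and 0.02 in ascending/arch SMCs (SE 0.202, edgeR adjusted p = 0.988), and these effects differed by 1.02 (SE 0.287, edgeR adjusted p = 1.00), not past the threshold. In GFPiSMC, descending against ascending/arch SMCs differed by −1.31 (SE 0.206, edgeR adjusted p = 0.0165). The descending call was lost without any one animal other than Tgfbr1/2iSMCKO animal 3 and with the descending libraries fitted alone (edgeR adjusted p 0.0656 to 0.135), and the segment call without any one GFPiSMC animal or Tgfbr1/2iSMCKO animal 1 (0.0625 to 0.228).

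*Ccn1*, often read with *Ccn2* and *Ankrd1* as a measure of YAP and TAZ activity, did not pass. It was at 724, 617, and 158 CPM in ascending/arch and 1282, 2308, and 179 CPM in descending GFPiSMC libraries, and at 87.7, 569, and 67.7 CPM in ascending/arch and 101, 344, and 80.4 CPM in descending Tgfbr1/2iSMCKO libraries. GFPiSMC animal 3 was the lowest of its genotype, and Tgfbr1/2iSMCKO animal 2 the highest of its own, in both segments, and the genotypes overlapped. The log2 fold change was −1.95 (SE 0.744, edgeR adjusted p = 0.189). It passed under 2 of 16 alternatives, among them the fit without Tgfbr1/2iSMCKO animal 2, the animal that was also highest for *Ankrd1* and *Ccn2*, with −3.21 (edgeR adjusted p = 0.0179).

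**Figure D3:**
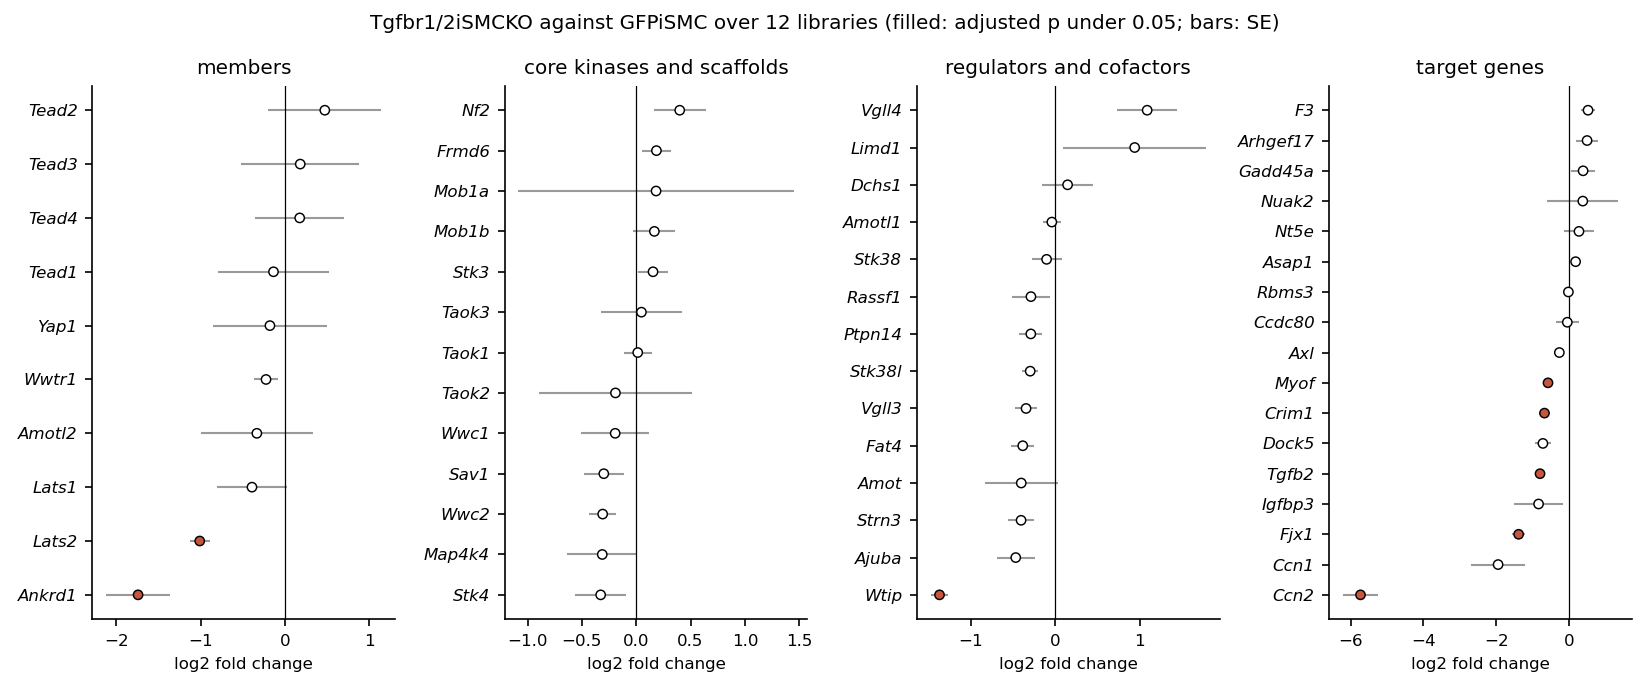
Log2 fold changes of Tgfbr1/2iSMCKO against GFPiSMC SMCs over 12 libraries for the 10 genes and the 3 pathway lists (points with bars of 1 SE, a separate axis in each panel, filled points with an edgeR adjusted p under 0.05). *Lats2*, *Ankrd1*, *Wtip*, and 5 target genes are filled, all on the lower side, and *Ccn2* lies at −5.73.

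**Figure D4:**
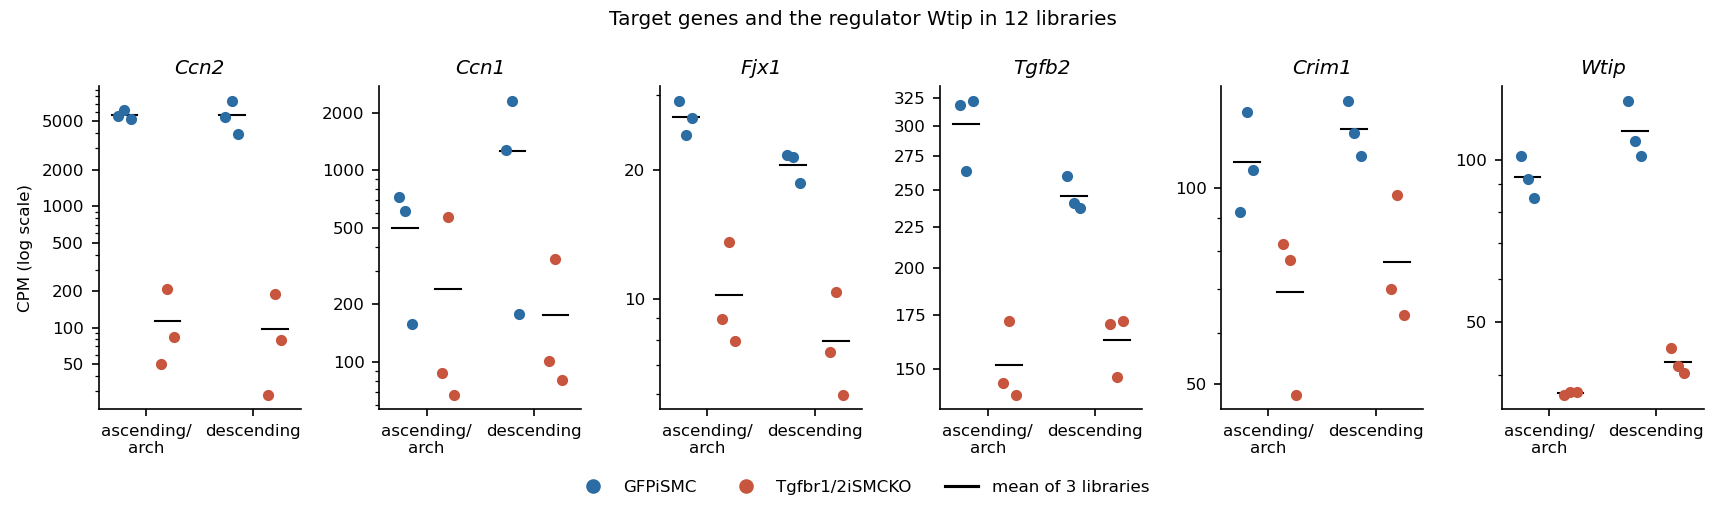
CPM (log scale, a separate scale in each panel) of *Ccn2*, *Ccn1*, *Fjx1*, *Tgfb2*, *Crim1*, and *Wtip* in each library, by segment and genotype, with black lines at the mean of 3 libraries. The genotypes are apart for *Ccn2*, *Fjx1*, *Tgfb2*, and *Wtip* and overlap for *Ccn1* and *Crim1*.

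Among 12283 genes with a mean log2 CPM above 1, those whose log2 CPM, centred on its mean, was nearest to that of *Ankrd1* over the 12 libraries were *Ndnf*, *Gm48053*, and *Rcan1*, with a root mean square difference of 0.354, 0.405, and 0.422. *Wwtr1*, which varied little, was nearest to *Ola1* (0.117), *Ptbp3* (0.122), and *Commd1* (0.137). For *Yap1*, whose log2 CPM had an SD of 2.01 over the libraries, the nearest genes were *Plekhg2* (0.670), *Gm44710* (0.674), and *Chpf* (0.710). For *Amotl2*, with an SD of 1.26, they were *Cdk13* (0.766), *Pcmtd1* (0.822), and *Ptpn13* (0.865). The difference is in log2 CPM, and for *Yap1* it rests mainly on the 2 low libraries.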

How the data were processed

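The authors aligned reads of low-input libraries to GRCm38 (mm10) with HISAT2 and quantified GENCODE gene models with StringTie. The deposited values are whole-number counts for 52636 genes in 12 libraries, without normalization. A value of 2 was more frequent than a value of 1 (32279 against 22574 entries of the table). No reads were reprocessed. Whether counting used strand is not given in the sources used here, so that reads of antisense partners are not told apart. Symbols, positions, and exon lengths came from GENCODE M21 on the same build (52403 genes with a symbol).

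Genotypes were compared with edgeR 4.0.16 in R 4.3.3 (filterByExpr, TMM, quasi-likelihood, segment and genotype as terms, 22320 genes, adjusted p under 0.05). Effects within segments and between segments came from a fit of 4 group means. Each SE was taken as the fold change (log2) divided by the root of its F statistic. The steps were tested on simulated counts of independent libraries, without likeness between the segments of a mouse. Such counts cannot show how far these segments act as separate samples. Alternatives used DESeq2 1.42.0 and limma 3.58.1, other scalings and filters, blocks, counts summed per animal, and animals left out; robust estimates were added after the data were seen. P values measure the spread between these libraries. Exact permutation tests of 3 mice against 3 cannot reach 0.05 and were not used. Figures used matplotlib 3.10.9.

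The 10 genes and all lists were chosen with earlier results of these data known. By rule, named genes are the 10, up to 4 lower and 4 higher genes per pathway list by smallest p among those past the threshold, *Ccn1* and *Ccn2*, and the 3 nearest genes to *Yap1*, *Wwtr1*, *Amotl2*, and *Ankrd1*. Outside this rule, *Stk3*, *Stk4*, *Sav1*, and *Nf2* were named although no gene of their list passed. *Myof*, *F3*, *Tgfbr1*, *Tgfbr2*, and some genes of the marker lists were also named outside it. Marker lists of skeletal muscle (14.7 to 30.7 CPM in sum) and adipocytes (0.685 to 2.58 CPM) were low in all libraries.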

Additional observations from a re-analysis of the deposited data

How the results depend on the processing

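Over 12 libraries, the number of the 10 genes called was 2, and 1 with counts summed per animal or, without single animals, 1 to 2. *Lats2* was called each time, and *Ankrd1* was the gene lost. In descending SMCs, 1 was called, against 2 with no filter beyond 1 count, with DESeq2, with limma-voom, and with a block for the replicate number, where *Ankrd1* joined *Lats2*, 0 with these libraries fitted alone, and 0 to 2 without single animals. Of all genes, 269 were called lower and 116 higher in the main fit of descending SMCs. These counts were 234 and 88 with no filter, 558 and 361 with DESeq2, 297 and 120 with limma-voom, and 238 and 82 with the block. In ascending/arch SMCs, 1 was called, and 0 to 1 without single animals. Between segments of GFPiSMC, 0 were called, against 1 (*Amotl2*) with DESeq2, which called 205 lower and 79 higher of all genes, against 69 and 15 in the main fit.

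Genes that did not pass changed direction under some settings. Over 12 libraries, *Tead1* was at 0.0020 with library size alone, *Yap1* at 0.24 with limma-voom, and *Tead2* at −0.055 with the replicate block. Leaving out single animals gave −0.48 to 0.038 (log2) for *Yap1*, −0.44 to 0.074 for *Tead1*, −0.83 to 0.94 for *Tead2*, −0.22 to 0.80 for *Tead3*, −0.0090 to 0.44 for *Tead4*, −0.9998 to 0.029 for *Lats1*, and −0.76 to 0.11 for *Amotl2*. The segment difference of *Amotl2* in Tgfbr1/2iSMCKO ranged from −1.26 to 1.05, and the difference of the genotype effect of *Lats2* between segments from −0.054 to 0.30. The cause was not tested. Library size alone moved the median log2 fold change of all genes from 0.04 to 0.16 and turned the split of calls from 721 lower and 402 higher to 505 lower and 699 higher. *Lats2* and *Ankrd1* stayed lower under it.

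Segments that share a genotype and a number were treated as those of 1 animal, which the labels do not state. Their deviations from the group means correlated at 0.187, −0.242, and 0.0240 in GFPiSMC and 0.0612, 0.377, and 0.661 in Tgfbr1/2iSMCKO, so the numbers were not shown to pair the libraries. For the genotype comparisons, the replicate block joined mice of both genotypes that share a number, a pairing that the labels do not state either. Their deviations correlated at −0.201, 0.216, and 0.0213 in ascending/arch and 0.00943, −0.46, and −0.527 in descending SMCs. This block gave 2 of 10 genes over 12 libraries, 1 in ascending/arch, and 2 in descending SMCs. With it, the target gene *Ccn1* passed, at −1.998 (log2, edgeR adjusted p = 0.0168). Counts limit *Tead2* and *Tead4*, with at most 160 and 21 counts in a library.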
